A study of Mus musculus with 4 samples.

Results

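The nuclear-encoded genes of the mitochondrial respiratory chain were examined in mouse blood stem and progenitor cells that had lost nicastrin. Members were chosen by symbol in the probe annotation, as genes beginning with Ndufa, Ndufb, Ndufc, Ndufs, Ndufv, Uqcr, Cox4 to Cox8 or Atp5, or being Sdh followed by a single letter from a to d. This gave 90 of the 18193 genes measured: 36 named for complex I, 4 for complex II, 8 for complex III, 17 for complex IV and 17 for complex V. The remaining 8, Ndufaf1 to Ndufaf8, share the prefix but are assembly factors of complex I and are given apart. Complexes were assigned by symbol, so Ndufa4, now known as a subunit of complex IV, stands with complex I.

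The arrays measured RNA of lineage negative, cKit+, Sca1+ (LSK) cells, the part of the bone marrow with the hematopoietic stem cells and their earliest progeny. WT mice were Ncstn flox/flox and Ncstn KO mice were Ncstn flox/flox Mx1-cre+ littermates, with 2 mice in each group, 1 of each sex, all 6 weeks old. Mice of both groups were given the interferon inducer polyIC 3 times, at 20 mcg per g of body weight, from 14 days of age, and their marrow was taken 4 weeks later. Mx1-cre, a recombinase switched on by interferon in many cell types, was present in the Ncstn KO group only, so an effect of the transgene and the loss of Ncstn cannot be told apart. WT replicate 1 and Ncstn KO replicate 2 were male, and WT replicate 2 and Ncstn KO replicate 1 were female.

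Complexes I and II pass electrons from NADH and succinate to ubiquinone, complex III passes them on to cytochrome c, and complex IV hands them to oxygen. The proton gradient built on the way drives complex V, the ATP synthase. Most subunits are encoded in the nucleus and a few core ones in mitochondrial DNA, so the genes described here are the nuclear share of machines with a mixed origin. Hematopoietic stem cells are known for low use of respiration, which rises as their progeny divide and mature.

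Ncstn itself had log2 intensities of 9.05 and 8.98 in WT and 7.58 and 7.91 in Ncstn KO (replicates 1 and 2). Both Ncstn KO arrays lay below both WT arrays, as the labels require. Of the markers kept by the sort, Kit was present, at 11.57 to 11.94 on every array. Sca1 (Ly6a) was not among the genes measured. Cd34 and Slamf1 were not part of the sort as described. Cd34 read 12.77 to 12.81, and Slamf1 was 0.83 higher in Ncstn KO (SE 0.28, limma adjusted p = 0.633). Among 14 measured markers of cells the sort should exclude, 5 were above and 9 below WT, and their summed linear intensity was 2644 and 2437 in WT against 1833 and 2645 in Ncstn KO. That sum hides opposite differences. Both Ncstn KO arrays lay above both WT arrays for 4 of the 14 (all genes 21.3%) and below for 5 (all genes 12.8%). The myeloid markers Cxcr2 (1.20), Cd14 (1.10) and the dim Itgam (1.07, at 4.05 to 5.77) were above WT. The B cell marker Ms4a1 (-2.12) and the erythroid markers Alas2 (-1.30) and Slc4a1 (-1.05) were below. Of the T cell markers, Cd4 (0.59) was above, Cd3e (-0.36) was below and Cd8a (-0.10) overlapped. Cxcl12, listed for stromal cells, was below as well (-2.17), at 4.69 and 7.84 in Ncstn KO. The other B cell marker, Cd79a (-0.37), overlapped between the genotypes, and none of the 14 was called. Of 5 progenitor markers 5 were above WT (all genes 55.8%), and their sum was 21016 and 21390 in WT against 28652 and 27910 in Ncstn KO. For 3 of the 5 (all genes 21.3%), Elane, Ctsg (0.58) and Itga2b (1.33), both Ncstn KO arrays lay above both WT arrays. Mpo (0.01) and Gata1 (0.27) overlapped between the genotypes. Elane, a granule protease gene of neutrophil precursors, was 1.19 higher (SE 0.11, limma adjusted p = 0.117). Whether a different mix of cells took part in any value below was not tested, and in such bulk samples fewer cells of a type and less RNA per cell cannot be told apart. No value below compares the level of one gene with that of another, because probe sets differ in brightness.

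The first comparison asked whether the respiratory chain differed between Ncstn KO and WT cells. Its genes lay close to each other in both genotypes. The median log2 difference, Ncstn KO minus WT, was -0.03 over the 90 members against 0.02 over all genes, and 80 of 90 differences were smaller than 0.2. The median size of a difference, sign set aside, was 0.07 for members and 0.13 for all genes. The probe sets of members were also brighter (median 12.30 against 8.04), and their median SE was smaller (0.096 against 0.19). The 48 cytosolic ribosomal protein genes, at a median level of 13.64, had a median size of 0.026. The part of brightness in these sizes was not tested. The median member level was 12.27 and 12.32 on the WT arrays and 12.35 and 12.20 on the Ncstn KO arrays, so the Ncstn KO arrays held both the highest and the lowest value. The pooled SD of these medians within genotypes was 0.078, larger than the median difference. The median difference itself was -0.079 without WT replicate 1, 0.026 without WT replicate 2, -0.082 without Ncstn KO replicate 1 and 0.023 without Ncstn KO replicate 2, so no direction can be given.

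By limma with genotype as the only term (2 residual degrees of freedom), 0 of 90 members passed an adjusted p of 0.05, and the share called among all 18193 genes was 0.0%. At an unadjusted p under 0.05, 3 members (3.33%) passed, against 6.8% of all genes: Ndufa6 and Cox6b2, both higher, and Ndufaf2, lower in Ncstn KO. Means above WT were seen for 34 members (37.8%), against 55.8% of all genes. Both Ncstn KO arrays lay above both WT arrays for 7 members (7.78%, all genes 21.3%), and both lay below for 12 (13.3%, all genes 12.8%). The count above WT fell to 3 under scaling to the hybridization controls, which were 0.20 brighter on the Ncstn KO arrays. That scaling also moved the median of all genes to -0.17 and that of members to -0.23. The count above WT was 22 without WT replicate 1, 53 without WT replicate 2, 15 without Ncstn KO replicate 1 and 57 without Ncstn KO replicate 2, so each array decides it. No share over all genes was taken for the counts under these alternatives. An absence of calls does not show equality. For 71 of 90 members (78.9%) the 95% interval of the difference lay within 0.5 on the log2 scale in both directions, against 31.8% of all genes. Here too the members had the brighter probe sets and the smaller median SE, and the part of brightness was not tested. With 2 arrays a group the exact permutation test of a single value cannot go below p = 0.333.

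**Figure D1:**
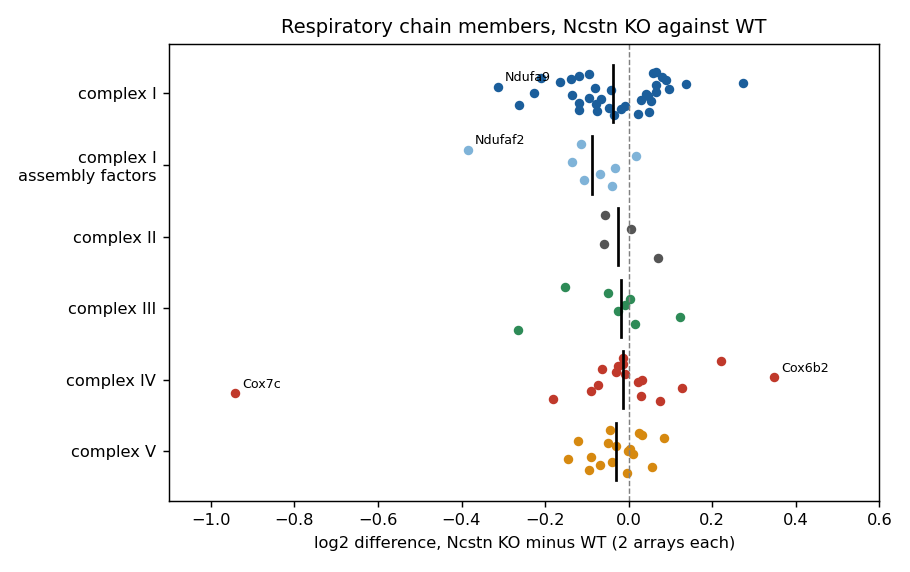
Log2 difference, Ncstn KO minus WT, for the 90 members (points), with the median of each complex as a black bar and points spread vertically in alphabetical order. Medians lie between -0.09 and -0.01, and the named points are members with a difference over 0.3 in size.

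Complex I, the NADH dehydrogenase, had a median difference of -0.04 over 36 members, with 15 above and 21 below WT. Ndufa6, an accessory subunit, read 11.66 and 11.69 in WT and 11.94 and 11.95 in Ncstn KO. Both Ncstn KO arrays were higher than both WT arrays, and the arrays of a genotype lay closer together than the genotypes did. The difference was 0.27 (SE 0.09, 1.21-fold), and after adjustment over all genes it was not called (limma adjusted p = 0.603), although no other member had a smaller p. Its interval ran from 0.06 to 0.48. Ndufa6 has 1 probe set of its own, so no second measurement was at hand.

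Among subunits of the electron-carrying arm, Ndufs1, the largest iron-sulfur subunit, read 11.33 and 11.48 in WT and 11.22 and 11.06 in Ncstn KO. Both Ncstn KO arrays were lower than both WT arrays, by -0.26 on average (SE 0.12, limma adjusted p = 0.780). The difference was -0.25 between the females and -0.27 between the males. Ndufv1, which holds the NADH site, read 12.04 and 12.23 in WT and 12.35 and 12.02 in Ncstn KO, and its groups overlapped (0.05, SE 0.13). Ndufs7, an iron-sulfur subunit next to the ubiquinone site, read 12.74 and 12.97 in WT against 12.75 and 12.72, with overlapping groups as well (-0.12, SE 0.09).

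Of the accessory subunits, Ndufa3 read 12.31 and 12.52 in WT and 12.26 and 12.14 in Ncstn KO, lower on both Ncstn KO arrays (-0.21, SE 0.10, limma adjusted p = 0.805). It was -0.10 without WT replicate 2. Its other probe sets gave -0.24 and, for a dim one, 0.29, and the mean of all 3 gave -0.052. Ndufa4 was likewise lower on both, at 12.53 and 12.42 against 12.57 and 12.66 (-0.14, SE 0.08). Its paralog Ndufa4l2, known from cells short of oxygen, was dim, at 5.81 and 5.90 in WT against 6.02 and 5.87. Ndufa9 fell outside the rule for named genes and was picked out after its values were seen. It had the lowest difference of complex I, -0.31 (SE 0.16), but its arrays overlapped, at 12.59 and 12.22 in WT and 12.25 and 11.94 in Ncstn KO. The female pair differed by 0.03 and the male pair by -0.66, so the mean rested on WT replicate 1 and Ncstn KO replicate 2.

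The 8 complex I assembly factors, which are not part of the finished enzyme, had a median of -0.09, with 1 above and 7 below WT. Leaving out WT replicate 1 gave -0.13 and WT replicate 2 -0.0093, while leaving out Ncstn KO replicate 1 gave -0.24 and Ncstn KO replicate 2 0.049, so its sign rests on single arrays. Their median SE was also wider, 0.16 against 0.096 over all members. Ndufaf2, a chaperone of late assembly, read 11.18 and 11.51 in WT and 11.08 and 10.84 in Ncstn KO. It was lower on both Ncstn KO arrays, by -0.39 (SE 0.16, 1.31-fold lower), and was not called (limma adjusted p = 0.727). Ndufaf4 gave -0.14 (SE 0.16) and Ndufaf7 -0.11 (SE 0.16), and the arrays of both overlapped between the genotypes.

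Complex II, succinate dehydrogenase, lies in the citric acid cycle and the chain at once and is the complex with no mitochondrially encoded subunit. Its median difference was -0.03. Sdhb, the iron-sulfur subunit, read 11.74 and 11.94 in WT and 11.90 and 11.80 in Ncstn KO, a difference of 0.006 (SE 0.11). Sdhc, a membrane anchor, gave -0.06 (SE 0.10), and the other anchor, Sdhd, gave 0.07 (SE 0.09), with both Ncstn KO arrays (11.87 and 11.84) above both WT arrays (11.79 and 11.79). Under scaling to the hybridization controls the value for Sdhd turned to -0.13. For Sdha, the flavoprotein, the brightest probe set read 12.46 and 12.58 in WT and 12.50 and 12.41 in Ncstn KO (-0.06, SE 0.08). The other 3 Sdha probe sets gave -0.26, 0.18 and 0.79, the last at only 5.67 and 5.74 in WT against 6.28 and 6.71, so no direction can be given for the gene.

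Complex III, the cytochrome bc1 complex, had a median of -0.02, and no member had arrays that separated the genotypes. Uqcrc1, a core protein, read 12.12 and 12.20 in WT and 12.22 and 12.09 in Ncstn KO (-0.008, SE 0.09). Uqcrfs1, the Rieske iron-sulfur protein, gave 0.12 (SE 0.10) and Uqcr10, a small subunit, gave -0.15 (SE 0.13). Uqcrq, also small, gave the lowest value, -0.27 (SE 0.21), from 10.46 and 10.85 in WT and 10.62 and 10.16 in Ncstn KO. Its spread within each genotype was as large as that difference.

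Complex IV, cytochrome c oxidase, had a median of -0.01 and ran from -0.94 (Cox7c, on which 1 array decides) to 0.35, or from -0.18 without Cox7c. Its larger nuclear subunits had small differences: Cox4i1 gave -0.01 (SE 0.07), Cox5a -0.01 (SE 0.09) and Cox5b -0.03 (SE 0.08). Cox4i1 read 12.68 and 12.62 in WT and 12.65 and 12.63 in Ncstn KO, a range of 0.058 over the 4 arrays. Of the forms found in most tissues, Cox6a1 (-0.06, SE 0.06) and Cox7a2 (-0.07, SE 0.06) were slightly lower on both Ncstn KO arrays, and Cox6b1 (-0.009, SE 0.07) and Cox8a (0.03, SE 0.11) overlapped.

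Cox6b2, the form of subunit 6b first known from testis, read 11.45 and 11.67 in WT and 11.99 and 11.83 in Ncstn KO. It was higher on both Ncstn KO arrays, by 0.35 (SE 0.12, 1.27-fold), the highest difference among the members, and was not called (limma adjusted p = 0.627). It was higher by 0.32 between the females and 0.38 between the males. Cox7a2l, which joins complexes III and IV into supercomplexes, read 12.57 and 12.43 in WT and 12.65 and 12.61 in Ncstn KO. Its 3 probe sets gave 0.12, 0.12 and 0.13, each with both Ncstn KO arrays above both WT arrays, although the SE of 0.08 left the difference uncalled (limma adjusted p = 0.893) and scaling to the hybridization controls turned it to -0.07.

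The 8 members known from muscle, testis, lung or hypoxic cells had a median difference of 0.05 and a wide median SE of 0.24. Apart from Cox6b2 and Cox6a2 they were dim. Cox4i2, the lung and hypoxia form of subunit 4, read 7.23 and 7.50 in WT and 8.06 and 7.12 in Ncstn KO, which placed the Ncstn KO arrays at both ends (0.22, SE 0.36). Cox7a1 (0.02, SE 0.27), Cox8b (-0.18, SE 0.29) and Cox6a2 (-0.03, SE 0.19), all muscle forms, overlapped between the genotypes.

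Complex V, the ATP synthase, had a median of -0.03, and all 17 members differed by less than 0.2. The catalytic Atp5b read 12.997 and 13.023 in WT and 13.089 and 12.978 in Ncstn KO (0.02, SE 0.07). Atp5a1, its partner in the catalytic ring, gave -0.04 (SE 0.06), and the central stalk gene Atp5c1 gave 0.03 (SE 0.07). Atp5k (-0.15, SE 0.08), a membrane subunit where 2 synthases meet, and Atp5e (-0.12, SE 0.08), part of the central stalk, were lower on both Ncstn KO arrays, Atp5k at 12.75 and 12.62 against 12.76 and 12.90. Atp5j2, another membrane subunit, gave -0.09 (SE 0.08). The 3 genes for the identical subunit c, Atp5g1, Atp5g2 and Atp5g3, gave -0.05 (SE 0.13), -0.03 (SE 0.09) and 0.002 (SE 0.05), while a second, dim probe set of Atp5g1 gave 0.51.

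Cox7c, a small structural subunit of complex IV, stood apart from the other members, and was picked out after its values were seen. It read 9.79 and 9.79 in WT and 7.49 and 10.21 in Ncstn KO. The low value belonged to Ncstn KO replicate 1 alone, and replicate 2 was the highest of the 4 arrays. The mean difference of -0.94 (SE 0.80, limma adjusted p = 0.947) therefore describes neither mouse: it was 0.42 without Ncstn KO replicate 1 and -2.30 without Ncstn KO replicate 2. Without replicate 2 limma called Cox7c (adjusted p = 0.0282), a fit in which the lone array is assumed to vary like the others. The second Cox7c probe set followed, at 7.11 and 6.87 in WT and 4.28 and 7.73 in Ncstn KO.

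Bright probe sets of 1 gene gave similar values. For 43 members with several probe sets above the median of all genes (8.04), their differences lay a median of 0.045 apart, at most 0.27 (Ndufb2), and had opposite signs in 5. The 8 members under that median, among them Ndufb4 and Ndufb1, were measured by dim probe sets only. For Ndufb4 a pair of brighter probe sets that also name Ndufb4b and Ndufb4c gave -0.06 and -0.10, beside -0.14 (SE 0.16) for its own. Ndufs5 was less close. A brighter probe set that also names its pseudogene gave -0.31, beside -0.02 (SE 0.14) for its own. It read 11.74 and 11.96 in WT and 11.58 and 11.50 in Ncstn KO. Of 10 probe sets naming a gene with a fitting symbol together with another gene, 6 were above that median. They ran from -0.31 to 0.03, with 1 above WT.

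The low reading on Ncstn KO replicate 1 was shared by second probe sets of other members. Of the 179 probe sets that name a member alone, 8 (4.47%) were lowest on this array by at least 1 log2 unit, against 1.26% of 34945 probe sets naming 1 gene. On each of the other 3 arrays, 0 of 179 were. The shares over all such probe sets were also small there, 0.092% and 0.106% on WT replicates 1 and 2 and 0.35% on Ncstn KO replicate 2. Of the 8, 7 were among the 89 probe sets that do not stand for their gene, and 1 was among the 90 that do. No share over all genes was taken for probe sets of the former kind. Besides the Cox7c pair, the 8 held single probe sets of Ndufab1, Cox5b, Cox8a, Uqcrq, Ndufb9 and Atp5g2, each dimmer than the probe set that stands for its gene. The Cox8a one read 5.87 and 6.11 in WT and 4.07 and 7.08 in Ncstn KO, and the Cox5b one 6.05 and 6.17 against 4.51 and 7.11. All 8 were highest on Ncstn KO replicate 2. In those 6 genes the brighter probe set showed no such drop: Cox5b, for example, read 13.42, 13.59, 13.52 and 13.44 over WT replicates 1 and 2 and Ncstn KO replicates 1 and 2.

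**Figure D2:**
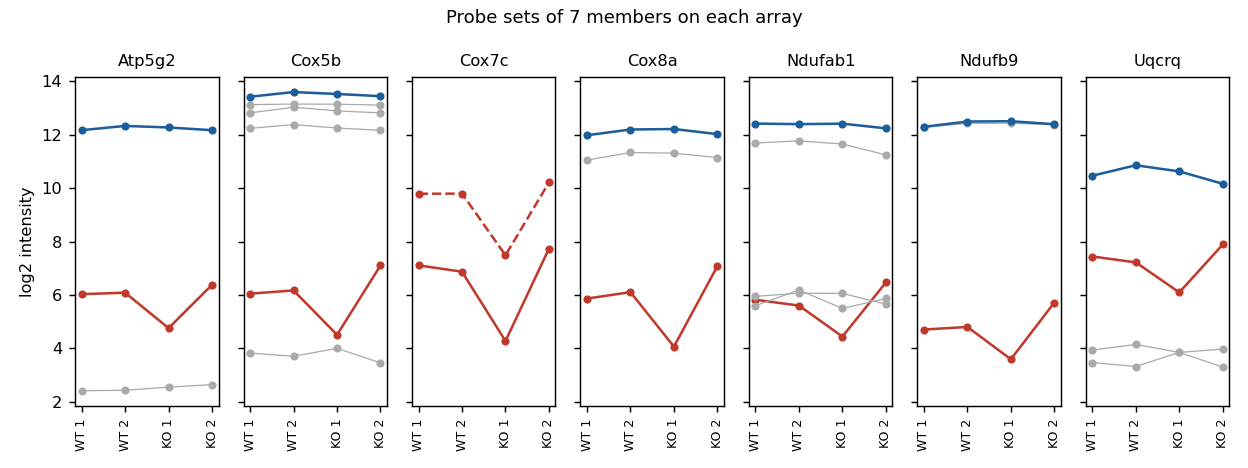
Log2 intensity of every probe set that names 1 of the 7 members alone, on WT replicates 1 and 2 and Ncstn KO replicates 1 and 2; lines join probe sets across arrays. Blue marks the probe set that stands for the gene, red those lowest on Ncstn KO replicate 1 by at least 1, dashed red where both hold (Cox7c, 7.49 on that array), and grey the rest.

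Between the sexes most members differed in 1 direction. Females were above males for 84 of 90 members (93.3%), against 63.2% of all genes, with a median of 0.12 against 0.07 on the log2 scale. Both female arrays lay above both male arrays for 56 members (62.2%, all genes 29.0%). The reverse held for 1 member (1.11%, all genes 11.5%), Uqcrb, a small subunit of complex III picked out after its values were seen, at 13.27 and 13.21 in females and 13.32 and 13.38 in males. The female array was the higher for 79 members in WT and for 78 in Ncstn KO, with median differences of 0.11 in each genotype. Over all 18193 genes it was the higher for 10438 in WT and 11481 in Ncstn KO, with medians of 0.042 and 0.098. In Ncstn KO the median of members was thus close to that of all genes. The difference between the sexes was larger in size than that between the genotypes for 64 of 90 members (71.1%), against 53.8% of all genes. Under scaling to the hybridization controls, which shifts the genotypes apart, that held for 15 members (16.7%), against 39.4% of all genes. The pooled SD of the member medians was 0.039 within sexes and 0.078 within genotypes.

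In the fit with sex and genotype, limma called 0 of 90 members (all genes 0.022%, 4 genes). At an unadjusted p under 0.05, 17 members (18.9%) passed, against 8.58% of all genes. Atp5g1 had the smallest p of the members, at 12.84 and 12.84 in females (WT, then Ncstn KO) and 12.61 and 12.51 in males. Females were 0.29 higher (SE 0.06, limma adjusted p = 0.574). Uqcrq was 0.43 higher (SE 0.11) and Ndufv1 0.26 higher (SE 0.07), each with both female arrays above both male arrays. Both have the same adjusted p of 0.574. The X-linked Ndufa1 was 0.23 higher (SE 0.08), and Ndufb11, also X-linked, 0.03 higher (SE 0.04).

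Medians, female minus male, were 0.11 for complex I, 0.10 for complex II, 0.13 for complex III, 0.10 for complex IV, 0.11 for complex V and 0.25 for the complex I assembly factors. The direction held under each scaling, with 81 members above under quantile normalization, 88 under median centring and 78 under scaling to the hybridization controls. Under scaling to the hybridization controls, both female arrays lay above both male arrays for only 13 members (14.4%), below the 20.2% of all genes, because it shifted the genotypes apart. Each sex within a genotype was a single mouse and a single array, so sex, mouse and array cannot be told apart. The log2 difference between the 3' and 5' Gapdh control probe sets, a measure of how complete the labelled RNA was, was lower on the female arrays (0.65 and 0.69) than on the male ones (0.71 and 0.77). The same difference for actin did not separate the sexes (females 0.79 and 1.02, males 0.89 and 0.94) but was higher on both Ncstn KO arrays than on both WT arrays, by 0.14 on average. The median linear intensity over all probe sets was lower on the female arrays, at 74.98 and 71.59 against 76.74 and 79.24. Over the genes tested, the median log2 intensity was the higher on the female array within each genotype, at 8.04 against 7.99 in WT and 8.11 against 8.09 in Ncstn KO. The part of any of these in the differences was not tested.

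**Figure D3:**
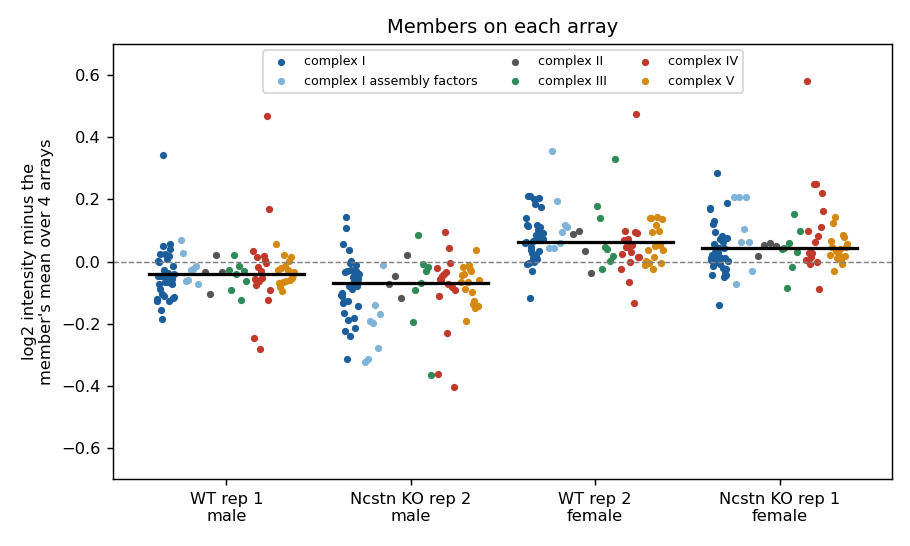
Log2 intensity of each member minus its own mean over the 4 arrays (points, coloured by complex), with the median of all members on each array as a black bar; Cox7c lies beyond the axis on 2 arrays (-1.83 on Ncstn KO replicate 1 and 0.89 on Ncstn KO replicate 2). The bars stand at -0.04 and -0.07 on the male arrays and at 0.06 and 0.04 on the female arrays.

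**Figure D4:**
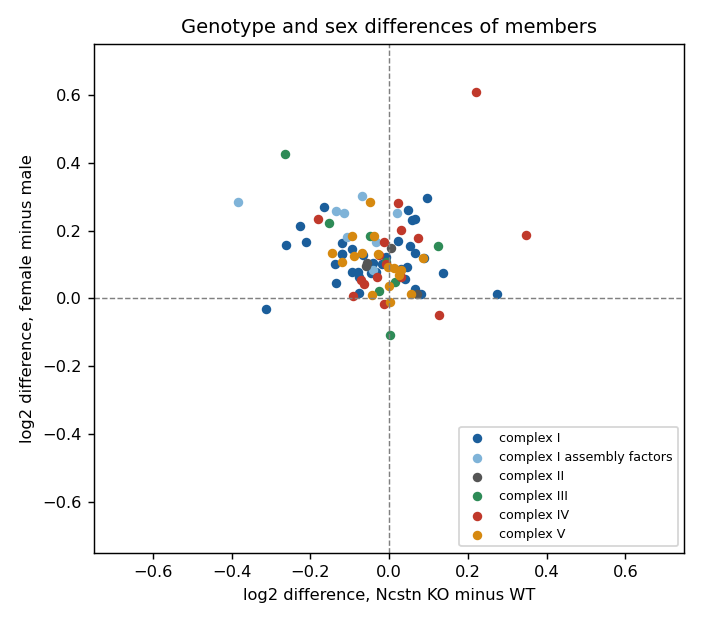
Log2 difference, female minus male, against log2 difference, Ncstn KO minus WT, for 89 members coloured by complex; Cox7c (-0.94, -1.36) lies outside the axes. Points gather above the horizontal line, with 84 of 90 members above 0, and on both sides of the vertical line, with 34 above 0.

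Genes around the chain were set beside it, in lists chosen with earlier results of these data known. In each list 0 genes passed by limma between the genotypes. The 15 measured electron carriers and other dehydrogenases, among them cytochrome c (Cycs, -0.32, SE 0.20) and cytochrome c1 (Cyc1, -0.20, SE 0.14), had a median of -0.07, with 4 above WT. Cyc1 is itself a subunit of complex III, but its symbol is not among those chosen. Cycs and Cyc1 overlapped between the genotypes. Of the 15, 2 were higher on both Ncstn KO arrays (all genes 21.3%), Etfdh (0.22, SE 0.10) and Coq9 (0.10, SE 0.12). Coq2 (-0.23, SE 0.10) alone was lower on both (all genes 12.8%). The 29 measured assembly factors of complexes II to V had a median of -0.0005, and the 12 citric acid cycle genes of -0.03. For the 7 measured genes of ATP export and coupling the median was 0.04, with 5 above WT. Both Ncstn KO arrays lay above both WT arrays for 3 of the 7 (all genes 21.3%). These were the phosphate carrier Slc25a3 (0.12, SE 0.065) and the outer membrane channels Vdac1 (0.08, SE 0.05) and Vdac2 (0.11, SE 0.07). Both lay below for 1 (all genes 12.8%), a further outer membrane channel, Vdac3 (-0.06, SE 0.07). Between the sexes, females were above males for 69 of 76 mitochondrial ribosomal protein genes (63.2% of all genes), with a median of 0.18. Both female arrays were the higher for 56 of them (29.0% of all genes) and both male arrays for 1 (11.5% of all genes). Of 48 cytosolic ribosomal protein genes, 17 were above in females (median -0.01), with both female arrays the higher for 7 and both male arrays for 21.

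Nuclear factors that switch on the chain were measured in 12 genes, with a median genotype difference of -0.07 and 5 above WT (all genes 55.8%). For 2 of the 12 (all genes 21.3%), Tfb2m (0.11, SE 0.13) and Esrra (0.09, SE 0.23), both Ncstn KO arrays lay above both WT arrays. For 3 (all genes 12.8%), Nrf1, Ppargc1a and Ppargc1b (-0.34, SE 0.22), both lay below. Nrf1, which binds the promoters of many chain genes, read 9.07 and 9.10 in WT and 8.58 and 8.81 in Ncstn KO, lower on both (-0.39, SE 0.19, limma adjusted p = 0.805). Ppargc1a, a coactivator of Nrf1, read 5.90 and 5.95 in WT and 4.90 and 3.18 in Ncstn KO (-1.89, SE 0.54, limma adjusted p = 0.544), dim on all arrays and far apart between the Ncstn KO mice. Gabpa (0.08, SE 0.12), Yy1 (0.02, SE 0.09) and Tfam (-0.07, SE 0.10) overlapped between the genotypes.

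Letters that these factors are known to bind stood in some of the members' promoters. RefSeq promoter windows of build GRCm38.p6, from 250 bases before to 50 after the gene's start, were matched for 74 of 90 members, 5 of them with more than 1 start. The motifs searched, on both strands, were GCATGCGC for Nrf1, CCGGAAG for ETS factors such as Gabpa, and AAGATGGC for Yy1, with 0 members in which matches of different motifs overlapped. GCATGCGC stood in the windows of 11 members (14.9%), against 3.05% of 27025 genes with a window. CCGGAAG stood in 19 (25.7%, all genes 9.93%) and AAGATGGC in 10 (13.5%, all genes 3.19%). At least 1 of them was found in 33 members (44.6%, all genes 14.9%), and the other 41 matched members held none. A match describes these letters and does not show binding.

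Stretches of 40 bases upstream of the start are printed for 8 members, of complexes I, II, IV and V and the assembly factors, whose values are given above, on the gene's strand, 5′ to 3′, with the motif letters on either strand in capitals. Where GCATGCGC and its reverse complement overlap, the capitals run to 10 bases. The windows of Ndufa6 (chr15:82354349-82354388, minus strand), Ndufaf4 (chr4:24897956-24897995, plus), Sdhb (chr4:140961203-140961242, plus), Cox6a1 (chr5:115349095-115349134, minus), Atp5g2 (chr15:102671064-102671103, minus) and Atp5k (chr5:108434424-108434463, minus) hold the Nrf1 letters. Those of Sdhd (chr9:50603870-50603909, minus) and Atp5e (chr2:174464178-174464217, minus) hold the ETS letters.
Ndufa6: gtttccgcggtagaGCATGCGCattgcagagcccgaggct
Ndufaf4: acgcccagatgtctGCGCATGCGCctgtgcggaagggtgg
Sdhb: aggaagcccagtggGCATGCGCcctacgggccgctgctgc
Cox6a1: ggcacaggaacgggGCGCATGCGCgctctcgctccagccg
Atp5g2: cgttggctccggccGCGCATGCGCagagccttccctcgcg
Atp5k: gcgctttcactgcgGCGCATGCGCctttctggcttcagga
Sdhd: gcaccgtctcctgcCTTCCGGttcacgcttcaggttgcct
Atp5e: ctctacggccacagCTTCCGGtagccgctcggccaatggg

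The 11 members with the Nrf1 letters had a median genotype difference of -0.03, from -0.15 (Atp5k) to 0.27 (Ndufa6), with 3 above WT. The 63 matched members without them had a median of -0.04. For the ETS letters the medians were -0.04 with and -0.03 without, and for the Yy1 letters -0.07 and -0.03. Females were above males for 11 of 11 members with the Nrf1 letters and for 59 of 63 without, with medians of 0.13 and 0.11.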

How the data were processed

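The deposited table holds 1 linear intensity for each probe set and array, made by the authors with RMA per the submitters' processing notes, from RNA amplified with Ovation reagents per the labels' protocols. They ran from 3.32 to 23642.6, so log2 was taken first, although the plan had allowed for log2 values. No single-probe values were used, so signal over background is unknown. After 64 control probe sets were left out, the brightest probe set naming a gene alone, by its mean over the arrays, stood for it, which gave 18193 genes. A further 10 probe sets naming a member together with another gene or pseudogene were left out of the tests. The fits used limma 3.58.1 under R 4.3.3 (functions lmFit and eBayes with variance trend, two-sided test, Benjamini-Hochberg over all genes), with genotype alone, or genotype and sex, as terms. SE is that of the limma fit, with n = 2 arrays a group. The mean prior degrees of freedom were 4.11 and 3.53. The fit was tested on simulated data. The members, lists and alternatives were chosen with earlier results of these data known. Named genes were the 3 members with the smallest p in each complex and among the assembly factors, core subunits and isoform pairs fixed by name, up to 4 members with probe sets of opposite sign of which at least 1 differed by 0.5 or more, and X-linked members. Deviations from the group means gave r = -0.24 over genes for same-numbered samples and 0.24 for same-sex samples. With 2 arrays a group these are 1 value with opposite signs, so they cannot decide on a pairing. The replicate numbers were not used as pairs in the main fit. Figures were drawn with matplotlib 3.10.9.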

Additional observations from a re-analysis of the deposited data

Results flagged for a closer look

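Within-sex differences, Ncstn KO minus WT, ran in opposite directions in the female and the male pair for 42 of 90 members (46.7%), against 45.0% of all genes. Each pair is 1 mouse against 1 mouse, so none of these differences between the pairs was tested. Among medians by complex, the female pair minus the male pair was -0.017 for complex II, -0.062 for complex III, 0.029 for complex IV and 0.040 for complex V. Among named members of complexes I to III it was 0.14 for Ndufv1, -0.10 for Sdhb, 0.16 for Sdhc and 0.046 for Uqcrc1. Among those of complex IV it was 0.082 for Cox4i1, 0.67 for Cox4i2, 0.084 for Cox5a, -0.090 for Cox5b, -0.066 for Cox6b1, 0.40 for Cox7a1 and 0.78 for Cox8b. For complex V it was 0.16 for Atp5a1, 0.085 for Atp5b, 0.10 for Atp5g1 and 0.072 for Atp5g3. The 3 widest, Cox8b, Cox4i2 and Cox7a1, belong to dim isoforms.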

How the results depend on the processing

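Members called between the genotypes stayed at 0 under every alternative except the fit without Ncstn KO replicate 2, which called 1, Cox7c (0 to 1 over the fits that leave out an array). Genes called numbered 3 under quantile normalization, 62 under median centring, 2 with low genes left out and 0 to 27 with an array left out. With sex as a covariate, which is also the crossed pairing of the replicate numbers, 0 were called, and 0 with the replicate number as a replicate block, so neither changed a call.

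Scaling to the hybridization controls moved every median: all genes to -0.17, members to -0.23, and complexes I to V to -0.23, -0.22, -0.21, -0.21 and -0.23, with the assembly factors at -0.28. It left 3 members above WT, 1 with both Ncstn KO arrays above and 74 with both below, and 13 (14.4%, all genes 20.2%) with both female arrays above. For the genotype counts of members in this paragraph no share over all genes was taken, so they cannot be set against the background. Median centring gave 2 members with both Ncstn KO arrays above and 2 with both below, and a median of 0.21 (all genes 0.16) for females minus males. Plain probe sets, with fewer members, gave 4 and 4. The mean of all probe sets gave 0.055 for complex II. With an array left out the median ran from -0.082 to 0.026 for members, -0.086 to 0.032 for complex I, -0.079 to 0.043 for complex II, -0.052 to 0.017 for complex III, -0.076 to 0.078 for complex IV, -0.080 to 0.044 for complex V, -0.24 to 0.049 for the assembly factors and -0.024 to 0.074 for all genes, and members above WT from 15 to 57. The members separated upward then numbered 9 to 39 and downward 17 to 51, since fewer arrays separate more easily.

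Signs of small differences among the 42 named members turned. Under scaling to the hybridization controls they became -0.17 for Atp5b, -0.16 for Atp5c1, -0.19 for Atp5g3, -0.17 for Cox7a1, -0.068 for Cox7a2l, -0.17 for Cox8a, -0.13 for Ndufa1, -0.11 for Ndufa4l2, -0.13 for Ndufb11, -0.15 for Ndufv1, -0.19 for Sdhb, -0.13 for Sdhd and -0.072 for Uqcrfs1. The mean of probe sets gave 0.23 for Atp5g1, 0.012 for Atp5j2, 0.032 for Cox6a2, -0.12 for Cox8a and 0.16 for Sdha, and plain probe sets 0.51 for Atp5g1. Quantile normalization gave -0.0039 for Atp5g3 and 0.0022 for Uqcrc1, and median centring 0.0012 for Cox6b1 and 0.0018 for Uqcrc1. With an array left out the ranges were -0.089 to 0.0002 for Atp5a1, -0.032 to 0.079 for Atp5b, -0.022 to 0.084 for Atp5c1, -0.22 to 0.12 for Atp5g1, -0.11 to 0.050 for Atp5g2, -0.022 to 0.026 for Atp5g3, -0.043 to 0.015 for Cox4i1, -0.25 to 0.69 for Cox4i2, -0.12 to 0.091 for Cox5a, -0.11 to 0.061 for Cox5b, -0.064 to 0.0022 for Cox6a2, -0.076 to 0.058 for Cox6b1, -0.22 to 0.26 for Cox7a1, -0.077 to 0.14 for Cox8a, -0.49 to 0.13 for Cox8b, -0.075 to 0.21 for Ndufa1, -0.22 to 0.0093 for Ndufaf7, -0.12 to 0.21 for Ndufv1, -0.12 to 0.0041 for Sdha, -0.094 to 0.11 for Sdhb, -0.15 to 0.030 for Sdhc and -0.074 to 0.057 for Uqcrc1. The cause was not tested. Adding an offset turned no named sign. Dropping the variance trend or adding either covariate could turn none, because the differences themselves are the same in those fits. Ndufa6 (0.078 to 0.29), Cox6b2 (0.15 to 0.46), Ndufaf2 (-0.58 to -0.22), Ndufs1 (-0.46 to -0.18) and Ndufa3 (-0.41 to -0.052) kept their sign under every alternative that gave them a value. Their arrays do not overlap between the genotypes, so leaving out an array could not turn these signs. The number of arrays limits all of these values.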
